A study of Mus musculus with 46 samples.

Results

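Gene expression was compared between mouse livers taken 2 d after a single dose of carbon tetrachloride (CCl4) and untreated livers. The members were chosen by title: the 5 arrays titled as 2 d, replicates 1 to 5, set against the 5 titled as controls, replicates 1 to 5, out of 46 arrays in 9 groups. All mice were male C57BL/6N animals of 8 to 10 weeks, with no genetic change named. The 2 d group had received 1.6 g/kg CCl4 in olive oil by intraperitoneal injection, and the control group is described as untreated, so the comparison also takes in the effects of injecting oil. Arrays at 1 d and 4 d after the same dose (5 each) were used to place the 2 d values in time. The sources used here do not give the time of day of sampling. RNA of whole liver was measured on an Affymetrix 3′-biased mouse array with 45101 probe sets, and values are log2 expression values. Each of 18193 genes was read from 1 probe set, the one with the highest mean over all arrays, and 13239 genes were tested. Nothing in the labels ties each array to a separate mouse, and the p-values therefore speak of the spread among these arrays alone, which may be technical. A value after ± is limma's standard error of a log2 fold change, or an SD where so named. This standard error rests on a spread per gene that is pooled over all 46 arrays in 9 groups. It can be too small for a gene that varies more at 2 d than in the other groups. The n is 5 arrays per group throughout, and the number of arrays limits the precision. A gene was called when its limma p, adjusted by Benjamini-Hochberg over all genes tested, was under 0.05.

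CCl4 is a solvent that hepatocytes around the central veins turn into a reactive radical, chiefly through the cytochrome P450 enzyme Cyp2e1. The cells around the central vein die, and the surviving hepatocytes, which are normally quiescent, leave this state, copy their DNA and divide until the lost tissue is replaced. In parallel, macrophages clear debris and hepatic stellate cells, the vitamin A-storing cells beside the sinusoids, turn into contractile, matrix-producing cells.

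The 5 arrays at 2 d varied more among themselves than the 5 control arrays. The correlation across genes, which are not independent replicates, ran from 0.969 to 0.991 between arrays at 2 d and from 0.985 to 0.991 between control arrays, and the median SD of a gene was 0.152 at 2 d and 0.114 in controls. The SD exceeded 0.5 in 400 genes at 2 d and in 155 genes in controls. Arrays 4 and 5 at 2 d stood apart from arrays 1, 2 and 3: only 17 genes differed by at least 2-fold between arrays 4 and 5, against 238 to 317 genes between either of them and any of the arrays 1 to 3, and 41 to 105 between control arrays. Among genes called at least 2-fold, the median difference from the control mean on arrays 1 to 5 was 1.33, 1.15, 1.20, 1.67 and 1.76 for those higher at 2 d and -1.03, -1.11, -1.18, -1.45 and -1.64 for those lower at 2 d. Array 2 also differed from arrays 1 and 3 in genes of mitosis, as given below. The difference between the 3′ and 5′ control probe sets of Gapdh, which grows as RNA degrades, was 0.198 ± 0.0346 at 2 d and 0.347 ± 0.0646 in controls (SD, n = 5 each, adjusted p = 0.0159, two-sided exact permutation test), and with this value as a covariate 2390 genes were called higher and 1939 lower. For actin the same difference was 1.38 ± 0.218 at 2 d and 1.46 ± 0.088 in controls (SD, adjusted p = 0.524, same permutation test). The interquartile range of the arrays averaged 2.62 at 2 d and 2.5 in controls, and their median 5.52 and 5.56 (adjusted p = 0.0159 and 0.0212, same permutation test). Many results that rest on arrays 4 and 5 are given with and without them, though not all. The fit without them has fewer arrays at 2 d, so a call can be lost there although the log2 fold change hardly moved. Of the genes named below, Acta2, Ccne1, Cdca3, Chek1, Cxcl1, Fen1, Ghr, Hnf4a, Igfbp3, Ighm, Lss, Lyz1, Mcm5, Mt1, Nupr1, Pgd, Pttg1, Rpl35, Rrm2, S100a8, Saa2, Sdha, Socs3, Srxn1, Tmsb10, Trib3, Upk1b, Upp2 and Vim were read from probe sets of a type that can also match near-identical transcripts, and their identity is uncertain to that extent.

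**Figure D1:**
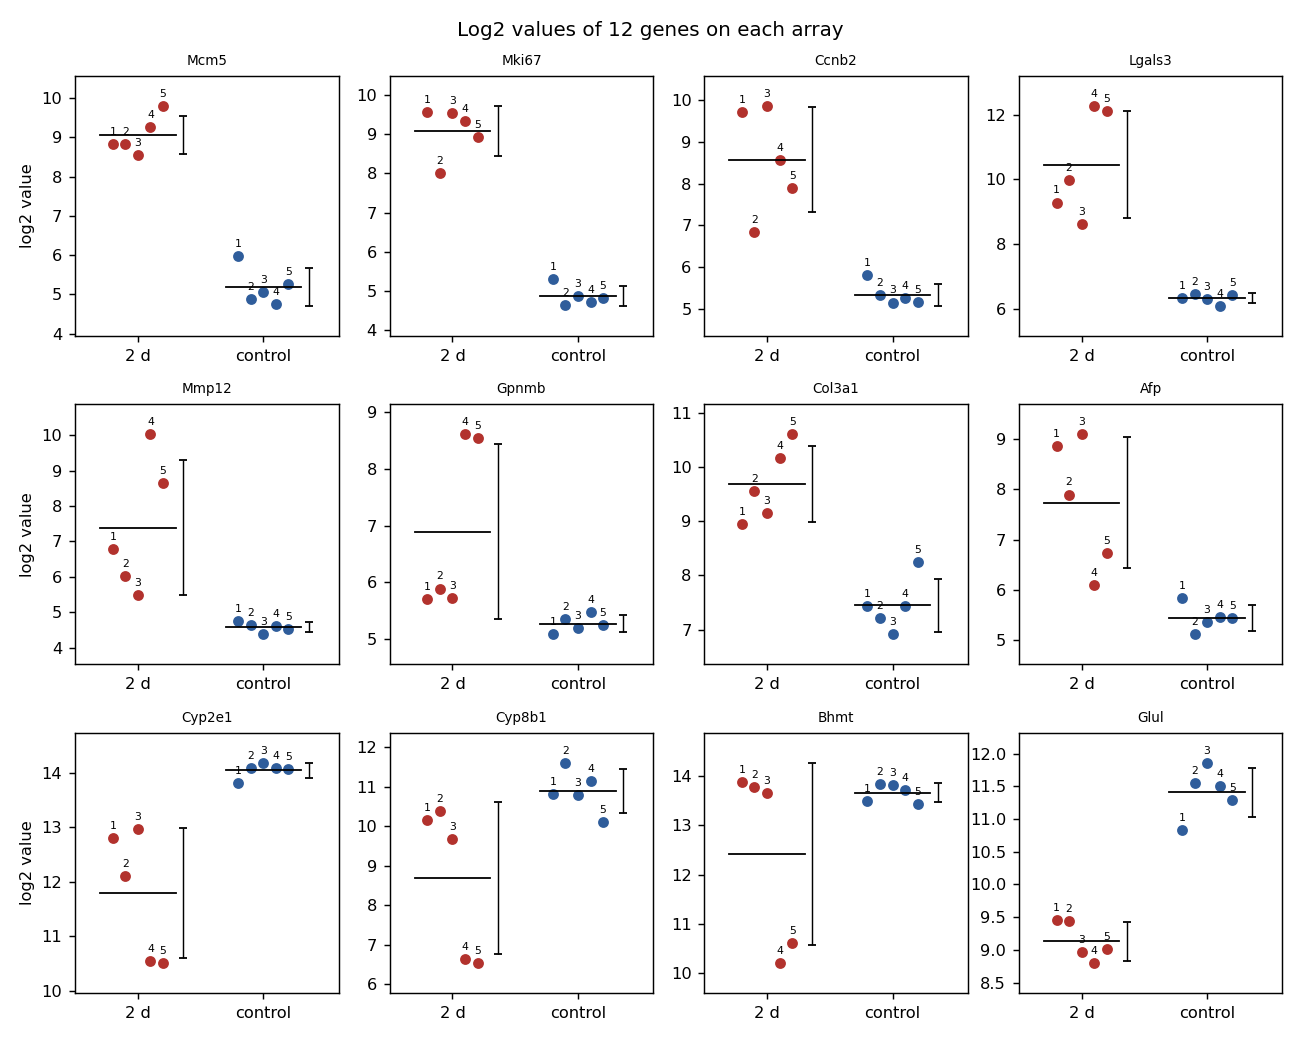
Log2 values of 12 genes on each array, with the 5 arrays at 2 d on the left (red) and the 5 control arrays on the right (blue). Numbers beside points are array numbers, horizontal lines are means and bars are ± 1 SD. Cyp8b1 and Bhmt were lowest on arrays 4 and 5, Lgals3, Mmp12 and Gpnmb were highest on these arrays, and Ccnb2 was lowest on array 2 among the arrays at 2 d.

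At 2 d 5307 of 13239 genes tested were called (40.1%), 2799 higher (21.1%) and 2508 lower (18.9%) than in controls. By at least 2-fold 563 genes were called (4.25%), 415 higher (3.13%) and 148 lower (1.12%), and past 4-fold stood 99 higher genes (0.748%) and 22 lower ones (0.166%), while 22 genes were higher (0.166%) and 4 lower (0.0302%) by 8-fold or more. The arrays at 2 d did not overlap with the controls in 3495 genes (26.4%), 3279 of them called (24.8%), and lay above all control arrays in 2074 genes (15.7%) and below them in 1421 (10.7%). The median log2 fold change of all genes was -0.0284. With quantile normalization of the arrays the split of calls turned to 2246 higher and 3146 lower, while the median of all genes moved by less than 0.1 under every scaling tried. Without arrays 4 and 5 at 2 d, 2175 genes were called higher and 1515 lower.

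**Figure D2:**
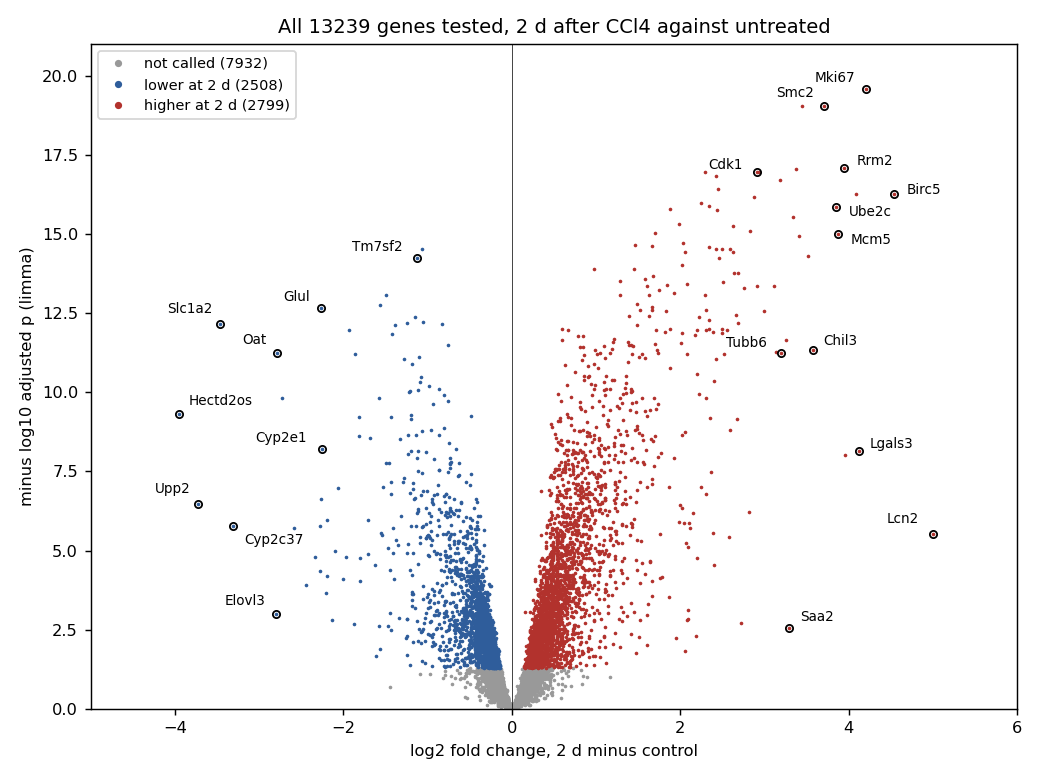
Log2 fold change (2 d minus control, x axis) against minus log10 of the limma adjusted p (y axis) for the 13239 genes tested, with 21 genes named. Genes of DNA copying and division such as Mki67, Rrm2, Birc5 and Mcm5 lie at the upper right, and genes of pericentral hepatocytes such as Glul, Oat and Slc1a2 at the upper left.

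Genes of DNA copying and cell division were higher. Rises and falls in whole liver can stem from more or fewer cells of a type or from more or less RNA per cell, and these cannot be told apart. Of 32 genes of mitosis and the spindle tested, 26 rose and 1 fell, with a median log2 fold change of 2.34, against 21.1% and 18.9% of all genes and a median of -0.03. Of 31 genes of DNA replication 26 rose and 2 fell, with a median of 1.45, and of 24 regulators of G1 and the checkpoints 21 rose and none fell, with a median of 0.58.

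Promoters of these genes are known to carry short control elements, and the stretches of 4 risen genes are printed to show them. The CHR element, bound by the DREAM and MuvB complexes, was searched as TTTGAA, the CCAAT box, bound by NF-Y, as CCAAT, and the E2F element as TTTGGCGC, TTTCCCGC, TTTGCCGC or TTTCGCGC, each on both strands and with overlaps allowed. The sequences are RefSeq's (build GRCm38.p6), 120 bases ending just before the transcription start, written 5′ to 3′ on the gene's strand, with letters that match an element in capitals. They are Cdk1 at chr10:69352913-69353032 (minus strand), Ube2c at chr2:164769809-164769928 (plus strand), Mki67 at chr7:135716380-135716499 (minus strand) and Mcm6 at chr1:128359706-128359825 (minus strand).
Cdk1: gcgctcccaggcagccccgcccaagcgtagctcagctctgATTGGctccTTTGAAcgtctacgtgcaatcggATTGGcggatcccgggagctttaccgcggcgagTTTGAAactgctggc
Ube2c: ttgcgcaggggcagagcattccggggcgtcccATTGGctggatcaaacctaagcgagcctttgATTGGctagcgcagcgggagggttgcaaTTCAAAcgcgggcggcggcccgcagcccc
Mki67: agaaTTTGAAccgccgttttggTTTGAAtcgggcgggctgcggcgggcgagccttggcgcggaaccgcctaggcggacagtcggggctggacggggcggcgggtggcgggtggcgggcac
Mcm6: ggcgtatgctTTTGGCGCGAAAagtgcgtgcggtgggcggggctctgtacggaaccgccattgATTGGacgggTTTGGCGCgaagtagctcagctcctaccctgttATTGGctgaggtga
Cdk1 and Ube2c hold the CHR letters near the start, read from the other strand in Ube2c, with CCAAT letters upstream of them, also read from the other strand, while Mcm6 holds E2F letters, a pair of which overlap, and no CHR letters in this stretch. In Mki67 the CHR letters stand at the upstream end of the stretch, which holds no CCAAT letters. In the whole windows of 250 bases before to 50 after the start, 27 mitosis genes with 29 windows could be matched, and TTTGAA stood in 23 of the windows (79.3%), against 3 of 32 windows of 27 DNA replication genes (9.38%) and 5878 of 32851 windows of all genes (17.9%). E2F letters stood in 11 of the 32 replication windows (34.4%), in 1 of the 29 mitosis windows (3.45%) and in 2.26% of all windows. CCAAT stood in 79.3% of mitosis windows, 59.4% of replication windows and 37.4% of all windows. These matches describe the letters and not sites of binding.

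Among the genes of mitosis Mki67, the proliferation marker Ki-67, had log2 values of 9.57, 8.02, 9.53, 9.34 and 8.94 on arrays 1 to 5 at 2 d, against 5.31, 4.65, 4.87, 4.73 and 4.82 in controls. The groups did not overlap, array 2 was the lowest at 2 d, and the rise was 18.5-fold (4.21 ± 0.19, adjusted p = 2.6e-20). Birc5, which encodes survivin, a subunit of the chromosomal passenger complex, had 10.27, 7.78, 10.19, 9.24 and 8.87 at 2 d, against 5.37, 4.48, 4.87, 4.55 and 4.40 in controls, a 23.2-fold rise (4.54 ± 0.27, adjusted p = 5.46e-17). Cdk1, the kinase that drives entry into mitosis, had 10.27, 8.89, 10.73, 10.19 and 10.08 at 2 d, against 7.48, 6.90, 7.03, 7.20 and 7.01 in controls, a 7.5-fold rise (2.91 ± 0.17). Its partner Ccnb2, a B-type cyclin, had 9.73, 6.85, 9.87, 8.56 and 7.90 at 2 d, against 5.80, 5.32, 5.15, 5.25 and 5.16 in controls. It rose 9.49-fold on average (3.25 ± 0.28), and array 2 lay well below arrays 1 and 3 but above all controls. Ube2c, the ubiquitin-conjugating enzyme of the anaphase-promoting complex (14.4-fold), Ect2, which is needed for cytokinesis (11.5-fold), Top2a, the topoisomerase that untangles chromosomes (10.3-fold), and Ccna2, cyclin A2 (5.52-fold), rose as well. Smc2, a condensin subunit outside the list, rose 13.1-fold and was even over the arrays apart from array 2, at 9.22, 8.32, 9.12, 9.01 and 8.98. Array 2 had the lowest value at 2 d in 24 of the 26 risen mitosis genes, and array 1 or 3 the highest in all 26. The mean over the 32 genes was 8.40, 7.05, 8.44, 7.96 and 7.67 on arrays 1 to 5 at 2 d, against 5.86 to 6.14 in controls. The gene that fell was Cenpf, a kinetochore protein, at -0.23 ± 0.08, but another of its probe sets gave 1.94. The microtubule regulators Kif2c and Tpx2, Cdca3, the transcription factor Foxm1 and securin, Pttg1, were not called, at -0.10, -0.08, -0.11, -0.03 and 0.00.

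Genes of DNA replication were ordered differently over the arrays. Mcm5, a subunit of the replicative helicase, had 8.84, 8.84, 8.55, 9.25 and 9.80 on arrays 1 to 5 at 2 d, against 5.98, 4.88, 5.05, 4.76 and 5.25 in controls, a 14.7-fold rise (3.87 ± 0.26, adjusted p = 9.77e-16, and 2.47 with another probe set). Rrm2, the regulated subunit of ribonucleotide reductase, which makes deoxynucleotides, had 9.97, 9.43, 9.84, 9.89 and 10.40 at 2 d, against 6.29, 5.66, 6.16, 6.02 and 5.68 in controls, a 15.4-fold rise (3.94 ± 0.22). In both genes the groups were well apart and array 5 was the highest at 2 d. Mcm6 (7.13-fold), Mcm4 (5.69-fold), both also helicase subunits, and Prim1, the primase that starts new strands (5.38-fold), rose too. Array 5 had the highest value at 2 d in 25 of the 26 risen replication genes. The mean over the list was 7.78, 7.84, 7.73, 8.10 and 8.52 at 2 d, against 6.51 to 6.70 in controls, so that array 2 lay beside arrays 1 and 3 here and not in mitosis. Mcm10, an initiation factor, fell at -1.47 ± 0.25 (-0.23 with another probe set), as did Orc1, a subunit of the origin recognition complex, at -0.25 ± 0.07 (0.02 as the mean of its probe sets). Cdc45, Fen1 and Chaf1b were not called.

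**Figure D3:**
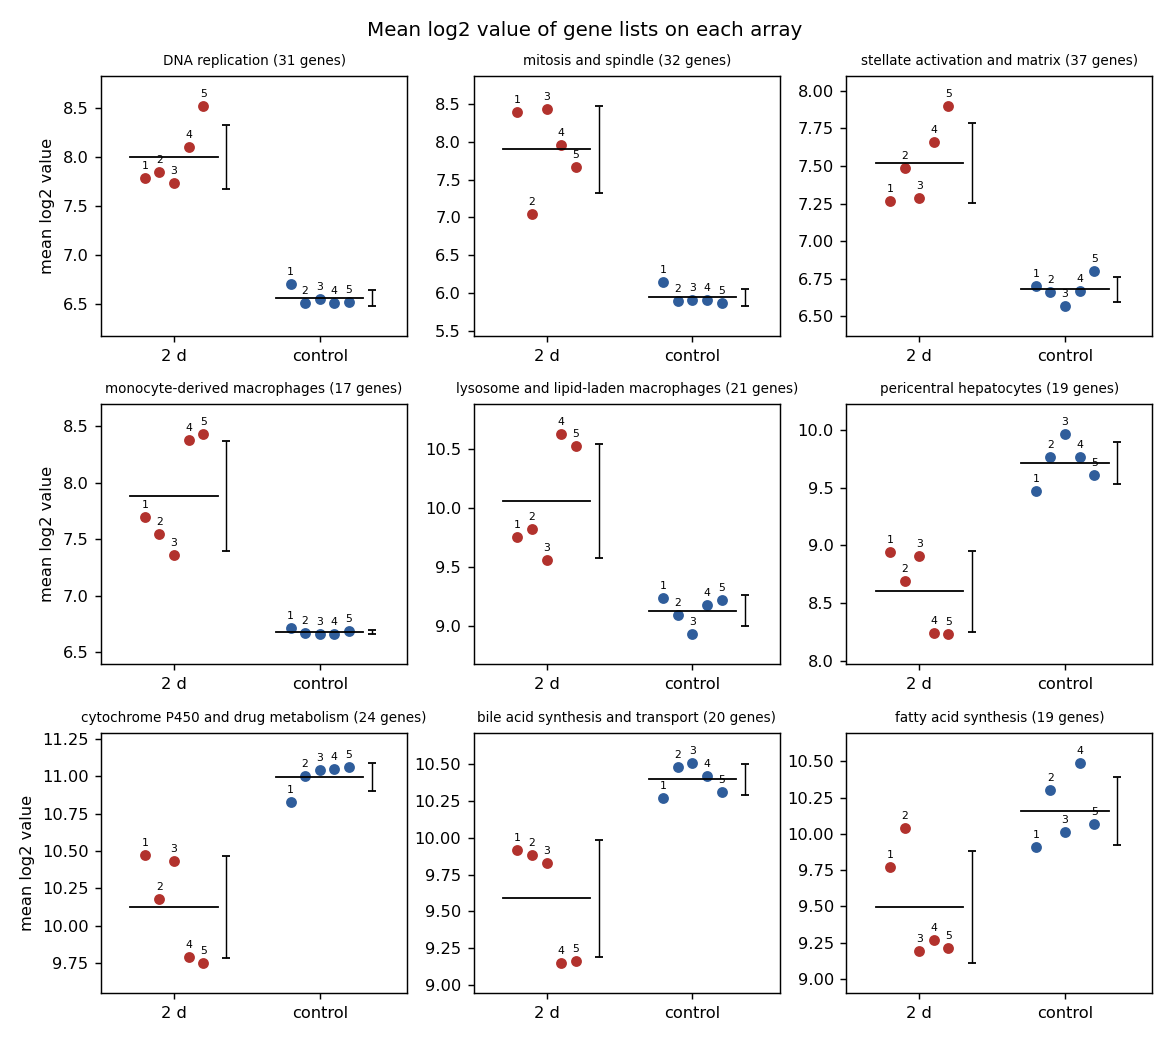
Mean log2 value of the genes tested in 9 lists on each array, with arrays at 2 d on the left (red) and control arrays on the right (blue), array numbers beside the points, means as lines and ± 1 SD as bars. Arrays 4 and 5 at 2 d are farthest from controls in the macrophage, pericentral, cytochrome P450 and bile acid lists, whereas array 2 is nearest to controls in the mitosis list.

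Upstream in the cell cycle, Ccne2, cyclin E2, had 5.66, 6.52, 5.44, 6.27 and 6.57 at 2 d, against 3.34, 3.50, 3.63, 3.89 and 3.64 in controls, a 5.61-fold rise (2.49 ± 0.21). Ccnd1, cyclin D1, which carries mitogen signals into the cycle, had 8.60, 8.77, 8.79, 10.11 and 10.23 at 2 d, against 8.30, 7.36, 7.95, 7.92 and 8.53 in controls. It rose 2.44-fold (1.29 ± 0.24), with arrays 1 to 3 barely above the highest control. Inhibitors and brakes rose in the same livers: Rbl1, the retinoblastoma relative p107, rose 6.41-fold (2.68 ± 0.22), Chek1, a checkpoint kinase, 4.89-fold (2.29 ± 0.13) and Cdkn3, a phosphatase acting on cyclin-dependent kinases, 4.14-fold (2.05 ± 0.23). Cdkn1a, the inhibitor p21, had 7.88, 7.76, 8.24, 7.99 and 8.48 at 2 d, against 6.34 to 6.47 in controls, a 3.13-fold rise (1.64 ± 0.30). Myc, a growth-promoting transcription factor, rose 2.42-fold (1.27 ± 0.32) and Ccne1, cyclin E1, 1.48-fold (0.57 ± 0.13). Of 14 targets of the tumour suppressor p53 tested, 7 rose and 1 fell, with a median of 0.34. Besides Cdkn1a the risen ones included Btg2, an antiproliferative gene (2.20-fold), Zmat3, an RNA-binding protein (1.56-fold), Ccng1, cyclin G1 (1.55-fold), and Phlda3, an inhibitor of Akt (1.47-fold). The gene that fell was Tnfrsf10b, a death receptor (-0.29 ± 0.11), a call lost under each of the 3 other scalings (adjusted p = 0.0613 with a median shift, 0.0607 with quantile normalization and 0.137 with cyclic loess) and with the Gapdh covariate (0.124). Gadd45a, a growth arrest gene outside these lists, was 6.19 to 7.12 at 2 d and 4.69 to 6.20 in controls (0.98 ± 0.39, adjusted p = 0.0426, and 0.89 with an adjusted p of 0.147 without arrays 4 and 5). Without arrays 4 and 5 the counts of risen genes were 26 for mitosis, 24 for replication and 16 for G1 regulators.

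Machinery for making and shaping proteins and cells was higher. All 23 cytosolic ribosomal protein genes tested rose, by 0.25 to 0.81 (median 0.55). Rplp0, a protein of the ribosomal stalk, had 12.44, 12.50, 12.43, 12.29 and 12.37 at 2 d, against 11.71, 11.69, 11.83, 11.73 and 11.71 in controls (0.67 ± 0.06, adjusted p = 1.08e-12). Rps19 rose 1.76-fold, Rpl35 1.75-fold and Rps3 1.58-fold, though other probe sets of Rpl35 and Rps3 went down to -0.32 and -0.44. Factors that assemble ribosomes rose in 9 of 22 genes (median 0.35), led by the small nucleolar RNA-binding proteins Nop58 at 2.47-fold (1.31 ± 0.25) and Nop56 at 1.72-fold (0.78 ± 0.21, adjusted p = 0.0708 without arrays 4 and 5). They rose in 3 genes without arrays 4 and 5. Subunits of the proteasome, which degrades tagged proteins, rose in 12 of 31 genes (median 0.17), with Psmc5 at 1.45-fold and Psmd8 at 1.49-fold. Of 21 genes of the cytoskeleton and keratins 16 rose and none fell (median 1.27). Tubb6, a beta tubulin, had 10.01, 8.62, 10.03, 9.64 and 9.72 at 2 d, against 6.58, 6.34, 5.91, 6.56 and 6.63 in controls, a 9.17-fold rise (3.20 ± 0.29, and -0.35 with another probe set). Tubb5, the tubulin of dividing cells, rose 3.94-fold (1.98 ± 0.13) and Tmsb10, an actin-binding thymosin, 5.67-fold (2.50 ± 0.21). Vim, the intermediate filament of mesenchymal cells, rose 6.04-fold (2.59 ± 0.29), with 8.81 to 10.69 at 2 d and 6.40 to 7.53 in controls.

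Markers of macrophages were higher and most so on arrays 4 and 5. Of 17 markers of monocyte-derived macrophages 13 rose and none fell (median 0.82), and the mean over the list was 7.70, 7.55, 7.36, 8.38 and 8.43 at 2 d, against 6.66 to 6.71 in controls. Chil3, a chitinase-like protein of alternatively activated mouse macrophages, had 7.55, 6.59, 6.19, 8.60 and 8.48 at 2 d, against 4.03, 3.90, 3.99, 3.66 and 3.96 in controls, an 11.9-fold rise (3.57 ± 0.32, and 2.87 without arrays 4 and 5). S100a6, a calcium-binding protein that dividing and stromal cells also make, had 8.33, 7.67, 7.36, 9.01 and 9.24 at 2 d, against 4.62, 4.12, 4.02, 4.13 and 4.91 in controls, a 15.6-fold rise (3.96 ± 0.48). S100a4 (4.44-fold), the hyaluronan receptor Cd44 (3.65-fold) and the lysozyme Lyz1 (3.40-fold) rose as well. The log2 fold change of S100a4 was 1.47 without arrays 4 and 5 in place of 2.15, and that of Lyz1 1.04 in place of 1.76. Ccr2, the chemokine receptor that defines inflammatory monocytes, was not called, at 6.89 to 6.97 at 2 d and 6.84 to 7.15 in controls (-0.07 ± 0.07, adjusted p = 0.444). Without arrays 4 and 5 the list had 8 risen genes.

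Genes of lysosomes and lipid-laden macrophages rose in 13 of 21 (median 0.59). Lgals3, galectin-3, had 9.29, 9.98, 8.62, 12.27 and 12.10 at 2 d, against 6.35, 6.48, 6.31, 6.10 and 6.44 in controls, a 17.3-fold rise (4.12 ± 0.49, and 2.96 without arrays 4 and 5). Cd68, a lysosomal protein of macrophages, rose 6.18-fold (2.63 ± 0.18) and Lgals1, galectin-1, 6.02-fold (2.59 ± 0.18). Gpnmb, a glycoprotein of lipid-laden macrophages, had 5.70, 5.89, 5.73, 8.61 and 8.54 at 2 d, against 5.08, 5.35, 5.20, 5.47 and 5.24 in controls. All its arrays at 2 d lay above controls, but the call (3.08-fold, adjusted p = 0.000501) rested on arrays 4 and 5, without which it was 0.50 with an adjusted p of 0.132. Of 2 genes that fell, Apoe, a lipoprotein that hepatocytes also make, did so at -0.43 ± 0.08, and Syngr1 at -0.26 ± 0.08 (0.03 with another probe set, and adjusted p = 0.0758 without arrays 4 and 5).

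Resident Kupffer cells, the macrophages of normal liver, had 5 of 15 markers higher, Marco, Cd5l, Vsig4, Cdh5 and Id3, and 1 lower (median 0.17). These are 33.3% and 6.67% of the list, against 21.1% higher and 18.9% lower among all genes. Cdh5 is also a member of the list of sinusoidal endothelium. The call of Vsig4 was lost with quantile normalization (adjusted p = 0.0952), cyclic loess (0.0602) and the Gapdh covariate (0.0916). Clec4f, the lectin that defines resident Kupffer cells, was not called, at 8.59, 8.40, 8.52, 8.41 and 9.16 at 2 d and 8.69 to 8.98 in controls (-0.16 ± 0.14, adjusted p = 0.394), nor was the pan-macrophage marker Adgre1 (0.23 ± 0.14, adjusted p = 0.178). Marco, a scavenger receptor, rose 4.59-fold (2.20 ± 0.39, and 1.46 without arrays 4 and 5), with 8.12, 8.70, 7.64, 9.89 and 10.11 at 2 d and 6.54 to 6.79 in controls. Cd5l, a secreted macrophage protein, was 10.57 to 11.66 at 2 d and 10.02 to 10.34 in controls (0.82 ± 0.20, adjusted p = 0.00127, and 0.0993 without arrays 4 and 5). Without these arrays 1 of the 15 markers was higher and 2 were lower. The gene that fell, C6, is a complement protein that hepatocytes also make.

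Attractants of leukocytes rose in 6 of 17 genes tested (median 0.14). Ccl6 had 8.14, 8.13, 7.63, 10.95 and 10.63 at 2 d, against 6.51, 6.45, 6.77, 6.31 and 6.52 in controls, a 5.99-fold rise (2.58 ± 0.42, and 1.45 without arrays 4 and 5). Ccl2, which draws monocytes, rose 2.22-fold (1.15 ± 0.20, and 0.56 without arrays 4 and 5) and Cxcl1, which draws neutrophils, 2.87-fold (1.52 ± 0.38). Cxcl9, an interferon gamma-induced attractant of T cells, fell 1.78-fold (-0.83 ± 0.18). Interferon-induced genes were called no more often than all genes, with 4 of 20 higher (20%, against 21.1% of all genes) and 2 lower (10%, against 18.9%). The higher ones were Oas1a, Bst2, Rsad2 and Cxcl10, the last 2 of them not called without arrays 4 and 5 (adjusted p = 0.603 and 0.145) and Bst2 not with the Gapdh covariate (adjusted p = 0.0528). The lower ones were Iigp1 at -0.55 ± 0.15 and Ifit1 at -0.68 ± 0.26 (also -0.68, with an adjusted p of 0.0897, without these arrays). Of 12 neutrophil markers 3 rose (25%, against 21.1% of all genes) and 3 fell (25%, against 18.9%), with a median of -0.09. The risen ones were Lcn2, which hepatocytes also make, S100a8 (4.27-fold, log2 fold change 2.09, and 1.48 without arrays 4 and 5) and S100a9 (1.95-fold, adjusted p = 0.205 without arrays 4 and 5), while the granule genes Ngp, Ltf and Mpo fell at -0.45 ± 0.09, -0.31 ± 0.07 and -0.26 ± 0.09, the call of Mpo being lost with a median shift (adjusted p = 0.0631), cyclic loess (0.105) and the Gapdh covariate (0.0914). Of 6 markers of T and NK cells limma called none, with 3 at an unadjusted p under 0.05 (Cd3e, Cd4 and Ncr1). Of 8 markers of B and plasma cells 3 fell (Blk, Cd22 and Ighm, at -0.26, -0.24 and -0.25), and of 9 of dendritic cells 1 fell (Flt3 at -0.24 ± 0.08). These are 37.5% and 11.1% of the lists, against 18.9% lower among all genes. Blk, Cd22 and Flt3 were not called without arrays 4 and 5 (adjusted p = 0.0682, 0.105 and 0.0539), and Ighm not with the Gapdh covariate (adjusted p = 0.119). Without these arrays Blk, Cd22 and Flt3 were at -0.25, -0.19 and -0.23, close to their values with all arrays.

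Genes of activated stellate cells and the matrix rose in 25 of 37 and fell in 1, Mmp2 (median 0.89). Acta2, the smooth muscle actin that marks myofibroblasts, had 7.85, 9.11, 7.82, 9.26 and 9.55 at 2 d, against 6.66, 6.65, 6.50, 6.55 and 6.81 in controls, a 4.24-fold rise (2.08 ± 0.19, adjusted p = 6.41e-12). Tagln, a contractile protein, had 7.13, 7.68, 6.94, 8.06 and 8.30 at 2 d, against 5.72 to 5.90 in controls, a 3.56-fold rise (1.83 ± 0.15). In both, arrays 1 and 3 were lower than arrays 2, 4 and 5. Col3a1, a fibrillar collagen, had 8.96, 9.56, 9.15, 10.18 and 10.61 at 2 d, against 7.44, 7.22, 6.91, 7.43 and 8.24 in controls, a 4.74-fold rise (2.25 ± 0.30). Col1a1 rose 1.68-fold (0.75 ± 0.12), with array 1 at 6.11 inside the control range of 5.78 to 6.13, and Col4a1, a basement membrane collagen, 3.69-fold (1.88 ± 0.18). Anxa2, annexin A2, had 10.80, 9.54, 10.47, 10.13 and 10.44 at 2 d, against 7.23 to 7.51 in controls, a 7.5-fold rise (2.91 ± 0.22). Markers of quiescent stellate cells were higher in 5 of 11 and lower in 2 (median 0.25). The higher ones were Reln, reelin (0.53 ± 0.12), Cygb, cytoglobin (0.58 ± 0.09), Hgf, the hepatocyte growth factor (0.69 ± 0.11), Rgs5 and Bmp5, and the lower ones Vipr1 and Gucy1a1. Bmp5, Vipr1 and Gucy1a1 were not called without arrays 4 and 5 (adjusted p = 0.095, 0.218 and 0.307). Bmp5 was at 0.26 without them and 0.27 with all arrays, Vipr1 at -0.19 and -0.24, and Gucy1a1 at -0.13 and -0.26.

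Enzymes that cut the matrix rose in 9 of 19 genes, inhibitors included (median 0.25), and in 5 without arrays 4 and 5. Mmp12, the macrophage elastase, had 6.79, 6.01, 5.49, 10.03 and 8.65 at 2 d, against 4.74, 4.63, 4.37, 4.62 and 4.53 in controls, a 7.04-fold rise (2.82 ± 0.41, and 1.52 without arrays 4 and 5). Mmp13, a collagenase, had 3.97, 3.44, 3.30, 7.03 and 6.64 at 2 d, against 2.87 to 3.13 in controls (1.86 ± 0.40, adjusted p = 0.000298, and 0.56 with an adjusted p of 0.0736 without arrays 4 and 5). Mmp14, a membrane-bound activator of proteases, rose 2.12-fold (1.09 ± 0.13) and Timp1, an inhibitor of these enzymes, 2.07-fold (1.05 ± 0.18). Mmp2, a gelatinase, fell at -0.30 ± 0.09.

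Genes of differentiated hepatocytes were lower, around the central vein and around the portal vein. Of 19 pericentral genes 13 fell and 1 rose (median -0.81), and of 18 periportal genes 11 fell and 2 rose (median -0.54). Glul, the glutamine synthetase of the cells next to the central vein, had 9.45, 9.44, 8.96, 8.80 and 9.01 at 2 d, against 10.83, 11.55, 11.86, 11.50 and 11.29 in controls, a 4.84-fold fall (-2.27 ± 0.18, adjusted p = 2.16e-13). Its values lay below all controls and close together. Cyp2e1, the enzyme that activates CCl4, had 12.80, 12.11, 12.96, 10.54 and 10.51 at 2 d, against 13.81, 14.09, 14.17, 14.09 and 14.06 in controls, a 4.78-fold fall (-2.26 ± 0.27, and -1.42 without arrays 4 and 5). All arrays lay below controls, arrays 4 and 5 much further than arrays 1 to 3. Oat, an ornithine aminotransferase, fell 6.9-fold (-2.79 ± 0.25) with arrays 4 and 5 nearest to controls, at 8.75, 8.67, 8.90, 9.52 and 9.24 at 2 d and 11.51 to 12.10 in controls. Slc1a2, a glutamate transporter, fell 11.1-fold (-3.47 ± 0.29, and -0.26 with another probe set), with 4.63 to 5.72 at 2 d and 7.92 to 9.19 in controls. Cyp1a2 was 9.86 to 10.91 at 2 d and 10.68 to 11.86 in controls (-0.81 ± 0.27, adjusted p = 0.014, and 0.22 without arrays 4 and 5). Lect2, a secreted chemotactic protein, was the pericentral gene that rose (0.81 ± 0.16). Without arrays 4 and 5 the pericentral list had 10 falls and the periportal list 8.

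On the periportal side Cyp2f2 fell 2.98-fold (-1.58 ± 0.16), with 11.93, 11.51, 11.65, 11.16 and 10.45 at 2 d and 12.80 to 13.03 in controls. Otc, the urea cycle enzyme ornithine transcarbamylase, fell 2.44-fold (-1.28 ± 0.17) and Etnppl, a phospholyase, 4.83-fold (-2.27 ± 0.32). Pck1, the gate enzyme of gluconeogenesis, had 8.79, 9.63, 9.09, 10.24 and 10.62 at 2 d, against 11.80 to 12.36 in controls, a 5.42-fold fall (-2.44 ± 0.49) in which arrays 4 and 5 were nearest to controls. G6pc, glucose 6-phosphatase, fell 3.68-fold (-1.88 ± 0.49, adjusted p = 0.00209, and 0.0581 without arrays 4 and 5). The periportal genes that rose were Ctsc, a lysosomal protease that leukocytes also make (0.95 ± 0.22), and Cdh1, E-cadherin (0.66 ± 0.25), neither of them called without arrays 4 and 5 (adjusted p = 0.0824 and 0.331).

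Of 24 genes of cytochrome P450 and drug metabolism 16 fell and none rose (median -0.72). Ugt2b1, a glucuronosyltransferase, had 10.67, 10.56, 10.73, 10.89 and 10.14 at 2 d, against 12.44, 12.62, 12.86, 12.33 and 12.40 in controls, a 3.81-fold fall (-1.93 ± 0.16). The Cyp2c genes differed strongly between arrays: Cyp2c37 had 9.49, 7.56, 8.74, 5.04 and 5.78 at 2 d, against 9.61, 11.19, 11.12, 10.94 and 10.31 in controls, a 9.91-fold fall on average (-3.31 ± 0.51, and -2.03 without arrays 4 and 5). Array 1 was just below the lowest control, whereas array 4 was far below it. Cyp2c54 fell 5.05-fold, Cyp2c50 4.28-fold and Cyp2c29 3.21-fold. The log2 fold change of Cyp2c54 was -1.17 without arrays 4 and 5 in place of -2.34, and that of Cyp2c50 -0.99 in place of -2.10.

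Bile acid genes fell in 12 of 20, with none higher (median -0.84). Slc27a5, which activates bile acids for conjugation, had 11.56, 11.09, 11.30, 10.89 and 10.47 at 2 d, against 12.38 to 12.51 in controls, a 2.61-fold fall (-1.39 ± 0.12). Slco1a1, an uptake transporter of organic anions, fell 2.75-fold (-1.46 ± 0.18). Cyp8b1, the sterol 12-alpha-hydroxylase, had 10.16, 10.38, 9.69, 6.65 and 6.54 at 2 d, against 10.82, 11.61, 10.80, 11.15 and 10.10 in controls (-2.21 ± 0.47, adjusted p = 0.000221). The groups overlapped, and without arrays 4 and 5 it was -0.82 with an adjusted p of 0.062. Cyp7a1, which sets the rate of that synthesis, had 9.18, 8.74, 8.95, 6.18 and 8.11 at 2 d, against 9.21 to 10.77 in controls (-1.57 ± 0.51, adjusted p = 0.0125, and 0.244 without arrays 4 and 5). Bhmt, an enzyme of methionine metabolism, was like Cyp8b1 in this respect, with 13.88, 13.78, 13.65, 10.20 and 10.60 at 2 d and 13.44 to 13.85 in controls (-1.24 ± 0.43, adjusted p = 0.0196, and 0.10 without arrays 4 and 5). Without these arrays 8 bile acid genes and 14 P450 and drug metabolism genes were called lower.

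Genes that male mice express more strongly in liver fell in 10 of 12, with none higher and a median of -1.31. Cyp4a12a, a fatty acid hydroxylase, had 7.67, 7.96, 8.42, 7.78 and 7.16 at 2 d, against 10.32, 10.35, 11.10, 10.61 and 10.26 in controls, a 6.63-fold fall (-2.73 ± 0.28, adjusted p = 1.57e-10). Ugt2b38 fell 4.87-fold, Hsd3b5, a steroid dehydrogenase, 4.56-fold and Cyp7b1, a steroid hydroxylase, 3.90-fold. The major urinary protein gene Mup10, which belongs to no list, fell 6.02-fold (-2.59 ± 0.40, and -1.70 without arrays 4 and 5). Of 6 female-biased genes 2 were lower (Cyp17a1 at -0.88 ± 0.21 and Cyp3a44 at -0.37 ± 0.12, adjusted p = 0.12 for Cyp3a44 without arrays 4 and 5) and none higher. Of 15 genes of the growth hormone and insulin-like growth factor axis, which sets this sex bias, 2 rose and 4 fell (median -0.14). These are 13.3% and 26.7% of the list, against 21.1% higher and 18.9% lower among all genes. The receptor gene Ghr fell 2.13-fold (-1.09 ± 0.18), with 10.69 to 11.33 at 2 d and 11.84 to 12.18 in controls, Socs3, an inhibitor of cytokine signals, rose 2.85-fold (1.51 ± 0.44, adjusted p = 0.0871 with the Gapdh covariate), and Igf1 fell slightly (-0.22 ± 0.09, adjusted p = 0.0454, and 0.105 with a median shift). The binding protein gene Igfbp1 rose (1.61 ± 0.50), and Igfbp2 (-0.95 ± 0.16) and Igfbp3 (-0.41 ± 0.12, adjusted p = 0.383 without arrays 4 and 5) fell. Without arrays 4 and 5, 8 male-biased genes were lower.

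In lipid metabolism fatty acid synthesis genes fell in 10 of 19, with none higher (median -0.50). Scd1, the stearoyl-CoA desaturase, had 12.59, 12.84, 12.46, 13.36 and 12.71 at 2 d, against 14.06, 14.13, 13.37, 14.30 and 14.10 in controls, a 2.29-fold fall (-1.20 ± 0.13). Array 4 at 2 d and control array 3 all but touched. Elovl3, a fatty acid elongase that is also male-biased, had 8.18, 9.17, 8.08, 5.68 and 4.46 at 2 d, against 10.55, 11.28, 9.90, 9.80 and 8.04 in controls (-2.80 ± 0.67, adjusted p = 0.000997, and 0.102 without arrays 4 and 5). Without these arrays 6 of the genes were lower. Cholesterol synthesis genes were called about as often as all genes, with 4 of 19 higher (21.1%, as of all genes) and 3 lower (15.8%, against 18.9%), and a median of 0.30. The higher genes were Mvk, Mvd, Lss and Cyp51. The count depended on the fit. With the Gapdh covariate 9 of the 19 were higher and 1 lower (median 0.49), against 2390 higher and 1939 lower of all 13239 genes. Lss, lanosterol synthase, was 8.63, 9.21, 8.19, 9.36 and 9.65 at 2 d and 8.00 to 8.54 in controls (0.74 ± 0.21, adjusted p = 0.00448, and 0.17 without arrays 4 and 5), and without these arrays no gene of the list was called higher. Tm7sf2, a sterol reductase, fell 2.19-fold (-1.13 ± 0.08), with all arrays at 2 d below all controls. Stard4, a sterol carrier, fell at -0.51 ± 0.17 (adjusted p = 0.0593 with the Gapdh covariate), and Srebf2, the regulator of the pathway, differed between its probe sets (-0.19 and 0.40). Of 18 genes of fatty acid oxidation 2 rose (11.1%, against 21.1% of all genes), Acadl and Hadha. In the same list 4 fell (22.2%, against 18.9%), Ppara, Ehhadh, Acot1 and Etfdh (median -0.14). None of these falls was called without arrays 4 and 5 (adjusted p = 0.0609, 0.0825, 0.854 and 0.642). Their log2 fold changes were then -0.70, -0.46, -0.08 and -0.08, against -0.73, -0.73, -0.77 and -0.34 with all arrays. The call of Hadha (adjusted p = 0.0496) was lost with quantile normalization (0.392), cyclic loess (0.172) and the Gapdh covariate (0.104), and that of Acadl with this covariate (0.0522). Ppara, the receptor that drives them, was 9.35 to 9.80 at 2 d and 9.92 to 10.61 in controls (-0.73 ± 0.24, adjusted p = 0.0131).

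**Figure D4:**
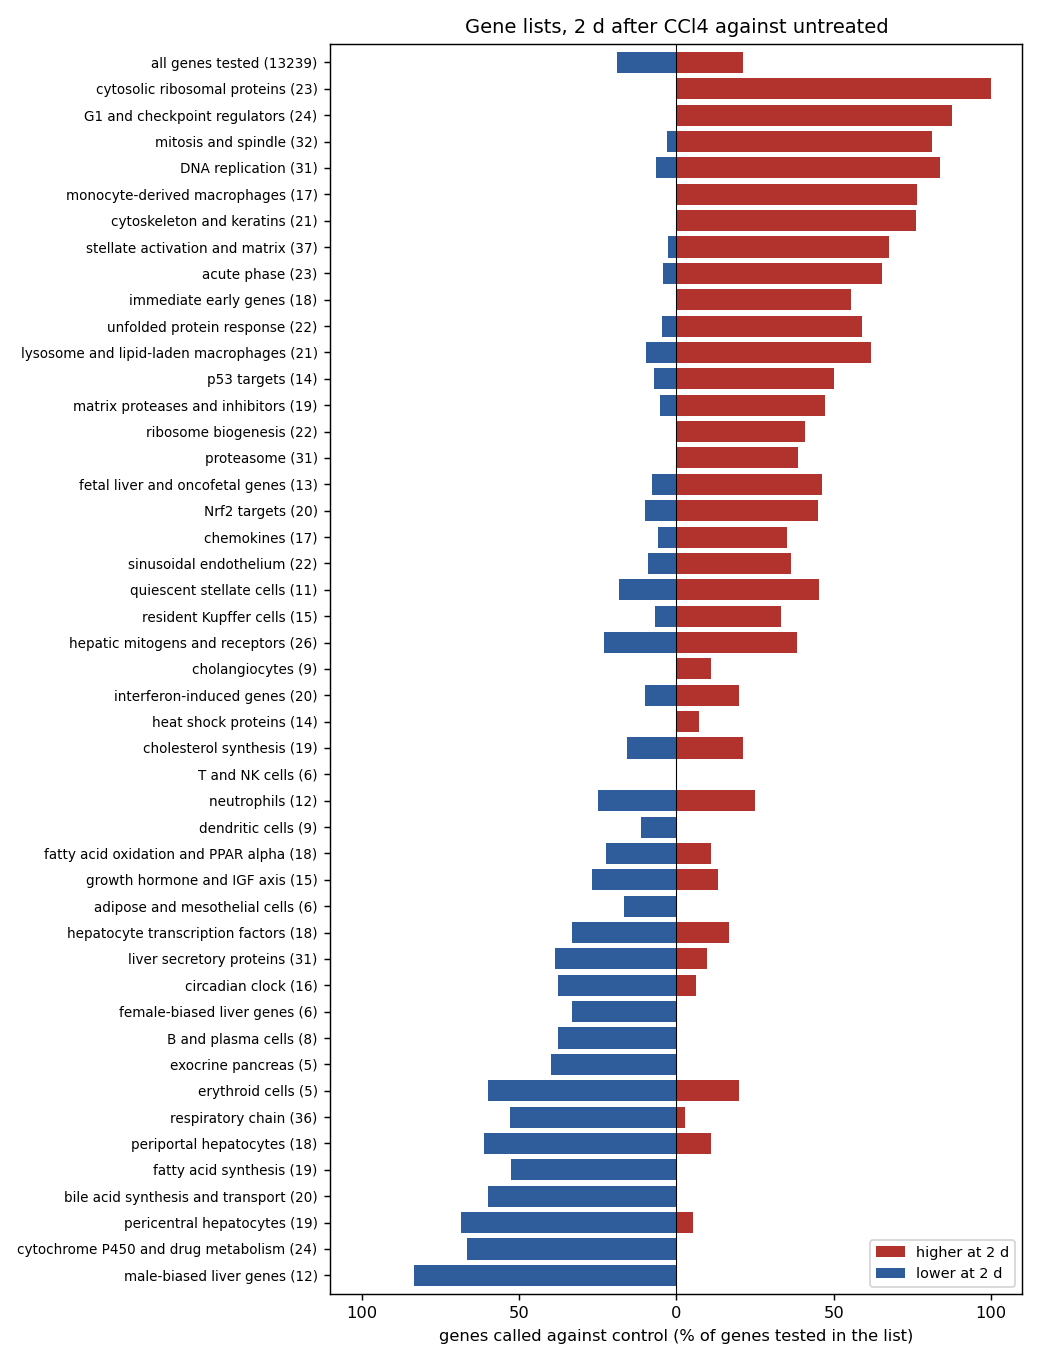
Share of the genes tested in each list that was called higher (red, to the right) or lower (blue, to the left) at 2 d against control, in percent, with the number of genes tested in parentheses and all genes in the top row. Of all genes 21.1% were higher and 18.9% lower, while cytosolic ribosomal protein, cell cycle, cytoskeleton and monocyte-derived macrophage lists lay far to the right and male-biased, P450 and pericentral lists far to the left.

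Secreted proteins of the liver were called in both directions. Alb, albumin, was 14.82 to 14.84 at 2 d and 14.70 to 14.81 in controls, which was not called (0.06 ± 0.04, adjusted p = 0.193, and -0.06 under cyclic loess scaling). Of 31 secretory genes 12 fell and 3 rose (median -0.23), with the anticoagulants Serpinc1, antithrombin, at 1.41-fold (-0.49 ± 0.06) and Proc, protein C, at 1.52-fold (-0.60 ± 0.09) and the complement component C8b at 1.89-fold lower (-0.92 ± 0.13). The risen ones, Hpx, Ahsg and Itih3, were not called without arrays 4 and 5 (adjusted p = 0.178, 0.06 and 0.328). Acute phase genes, which inflammation induces in hepatocytes, rose in 15 of 23 and fell in 1 (median 0.50). Lcn2, the iron-scavenging lipocalin, had 10.11, 10.58, 10.68, 10.75 and 10.93 at 2 d, against 6.39, 4.51, 5.25, 5.19 and 6.68 in controls, a 32.1-fold rise (5.00 ± 0.80, adjusted p = 3.06e-06). The arrays at 2 d agreed closely and the controls spread over 2 log2 units. Saa2, serum amyloid A2, had 9.63, 11.36, 10.79, 11.77 and 12.14 at 2 d, against 9.99, 6.90, 7.83, 6.69 and 7.84 in controls, a 9.75-fold rise (3.29 ± 0.88) in which control array 1 overlapped with the arrays at 2 d. Saa1 (6.61-fold) had its highest control, 12.34, on the same array. Orm2, orosomucoid 2, had 8.25, 7.91, 7.91, 10.38 and 10.68 at 2 d and 6.27 to 7.54 in controls (2.09 ± 0.52, adjusted p = 0.00146, and 0.122 without arrays 4 and 5). Without these arrays 9 acute phase genes were higher. Il6ra, the interleukin 6 receptor subunit of hepatocytes, was the gene that fell (-0.48 ± 0.17), while Il6st, the shared signalling subunit gp130, rose 1.83-fold (0.87 ± 0.10).

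Of 18 transcription factors that keep hepatocyte identity 3 were higher, Foxa1, Foxa2 and Cebpd (adjusted p = 0.133 for Cebpd without arrays 4 and 5), and 6 lower (median -0.21). These are 16.7% and 33.3% of the list, against 21.1% higher and 18.9% lower among all genes. Without arrays 4 and 5, 2 were higher and 1 was lower. Hnf4a was not called, at 11.27 to 11.50 at 2 d and 11.42 to 11.76 in controls (-0.20 ± 0.12, adjusted p = 0.187). Cebpa, which restrains division, was 9.45, 9.47, 9.08, 9.01 and 8.74 at 2 d and 9.56 to 9.85 in controls (-0.56 ± 0.16, adjusted p = 0.00466, and 0.111 without arrays 4 and 5). Tbx3, a target of Wnt signals in pericentral cells, fell 1.86-fold (-0.89 ± 0.18), and Foxa1, a pioneer factor, rose 1.98-fold (0.98 ± 0.24). The call of Foxa2 was lost with quantile normalization (adjusted p = 0.0677) and the Gapdh covariate (0.143). Among oncofetal genes, 6 of 13 rose and 1 fell, Igf2bp3 (median 0.40), while 3 rose and 3 fell without arrays 4 and 5. Afp, alpha-fetoprotein, the albumin of the fetus, had 8.87, 7.90, 9.10, 6.09 and 6.74 at 2 d, against 5.84, 5.11, 5.35, 5.45 and 5.43 in controls, a 4.94-fold rise (2.30 ± 0.32, 4.99 with another probe set, and 3.19 without arrays 4 and 5). Arrays 4 and 5 were the lowest at 2 d here, and array 4 lay just above controls. Pkm, the pyruvate kinase of fetal and dividing cells, rose 2.64-fold (1.40 ± 0.15). Of 9 cholangiocyte markers 1 was higher (11.1%, against 21.1% of all genes), Anxa4, annexin A4 (1.11 ± 0.10), and none was lower.

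Ligands and receptors of liver growth were called in both directions, with 10 of 26 higher (38.5%, against 21.1% of all genes) and 6 lower (23.1%, against 18.9%). The median was -0.05, and 8 were higher and 3 lower without arrays 4 and 5. Hgf, the main mitogen of hepatocytes, was 5.93, 5.91, 6.26, 6.41 and 6.47 at 2 d and 5.35 to 5.63 in controls, a 1.61-fold rise (0.69 ± 0.11, adjusted p = 5.7e-06). Of the receptors, Tnfrsf12a, the receptor Fn14 of the cytokine TWEAK, rose 2.59-fold (1.37 ± 0.27), Osmr, the oncostatin M receptor, 2.11-fold (1.08 ± 0.19) and Tgfbr2, a receptor of the growth-inhibiting TGF beta, 1.78-fold (0.83 ± 0.15). Erbb3, a receptor of the EGF family, fell 1.62-fold (-0.69 ± 0.19, adjusted p = 0.00323, and 0.151 without arrays 4 and 5), and Egfr was 9.39 to 10.92 at 2 d and 10.83 to 11.79 in controls (-0.95 ± 0.39, adjusted p = 0.046, and 0.0635 without arrays 4 and 5). The log2 fold change without these arrays was -0.38 for Erbb3 and -1.10 for Egfr. Markers of sinusoidal endothelium were higher in 8 of 22 (36.4%) and lower in 2 (9.09%, median 0.15), and in 3 and 2 without arrays 4 and 5. Stab1, a scavenger receptor, was higher at 0.52 ± 0.12 and Rspo3, an enhancer of Wnt signals, at 0.50 ± 0.12, while Ehd3 fell at -0.43 ± 0.08 and Kdr, the main receptor of vascular endothelial growth factor, at -0.26 ± 0.07.

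Of 20 targets of Nrf2, the regulator of antioxidant genes, 9 rose and 2 fell, Gsta2 (adjusted p = 0.312 without arrays 4 and 5) and Me1 (median 0.51). Srxn1, which repairs oxidised peroxiredoxins, had 8.43, 8.04, 8.70, 8.34 and 8.50 at 2 d, against 6.88 to 7.07 in controls, a 2.73-fold rise (1.45 ± 0.34, and -0.02 with another probe set). Pgd, an enzyme of the pentose phosphate pathway, rose 2.48-fold (1.31 ± 0.19) and Txnrd1, thioredoxin reductase, 1.69-fold (0.75 ± 0.17). Hmox1, haem oxygenase, was 7.01, 7.05, 7.22, 7.55 and 8.63 at 2 d and 6.64 to 6.98 in controls (0.69 ± 0.27, adjusted p = 0.0379, and 0.458 without arrays 4 and 5). Unfolded protein response genes rose in 13 of 22 and fell in 1 (median 0.39), with the chaperone partners Manf at 2.17-fold (1.12 ± 0.23) and Sdf2l1 at 2.04-fold (1.03 ± 0.19), while the stress factors Ddit3 (0.38 ± 0.22, adjusted p = 0.171) and Trib3 (-0.56 ± 0.35, adjusted p = 0.199) were not called and Herpud1 fell at -0.72 ± 0.24 (adjusted p = 0.0538 with the Gapdh covariate). In this list 8 genes rose and 1 fell without arrays 4 and 5. Of 14 heat shock protein genes 1 rose (7.14%, against 21.1% of all genes), Hsp90aa1 at 2.49-fold (1.32 ± 0.26). Hspa1a and Hspa1b were not called (adjusted p = 0.854 and 0.429). Immediate early genes rose in 10 of 18 with none lower (median 0.60), and in 5 without arrays 4 and 5. Fos, a subunit of AP-1, had 7.67, 7.34, 6.62, 9.31 and 9.34 at 2 d, against 5.21, 6.07, 6.01, 5.76 and 5.30 in controls, a 5.22-fold rise (2.39 ± 0.38, and 1.54 without arrays 4 and 5), and Egr1, a zinc finger factor, rose 5.27-fold (2.40 ± 0.44) with control array 5 at 9.35 inside the 2 d range. The metallothionein genes Mt2 (3.87-fold, adjusted p = 0.00581) and Mt1 (4.16-fold, adjusted p = 0.015) overlapped with controls and were not called without arrays 4 and 5 (adjusted p = 0.0852 and 0.142).

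Respiratory chain genes were slightly lower, in 19 of 36 with 1 higher, Ndufa8 (adjusted p = 0.0593 with the Gapdh covariate, median -0.21), and in 7 without arrays 4 and 5. Sdha, a subunit of complex II, had 10.70, 10.59, 10.57, 10.40 and 10.13 at 2 d, against 11.06 to 11.27 in controls (-0.72 ± 0.09, adjusted p = 1.61e-08). Cox6c, of complex IV, had 11.59 to 11.67 at 2 d and 12.04 to 12.16 in controls (-0.48 ± 0.05). Of 16 clock genes 6 fell and 1 rose (median -0.34), and 3 fell and 1 rose without arrays 4 and 5. The 1 that rose was Clock (0.71 ± 0.25, adjusted p = 0.0511 with quantile normalization), and Nr1d1, the repressor REV-ERB alpha, fell at -0.49 ± 0.15 and Cry2, a cryptochrome, at -0.56 ± 0.16. Erythroid genes moved in 4 of 5, with Alas2, which starts haem synthesis in red cells, at -1.11 ± 0.16, Klf1 at -0.59 ± 0.12, Gata1 at -0.28 ± 0.08 (adjusted p = 0.145 without arrays 4 and 5) and Tfrc, the transferrin receptor, which dividing cells also use, at 1.29 ± 0.30. Exocrine pancreas genes, a sign of neighbouring tissue, fell in 2 of 5 (Clps at -0.20 ± 0.07 and Prss2 at -0.27 ± 0.08), and of 6 adipose and mesothelial genes 1 fell (Upk1b at -0.42 ± 0.13). These are 40% and 16.7% of the lists, against 18.9% lower among all genes. Clps and Upk1b were not called without arrays 4 and 5 (adjusted p = 0.142 and 0.0899).

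Several of the largest falls belong to no list. Upp2, a uridine phosphorylase, had 8.22, 8.54, 6.86, 6.68 and 6.86 at 2 d, against 10.67, 10.61, 11.57, 11.12 and 11.82 in controls, a 13.2-fold fall (-3.73 ± 0.53). Hectd2os, a transcript antisense to Hectd2, fell 15.5-fold (-3.95 ± 0.42, and -3.27 without arrays 4 and 5), to 2.35 to 4.81 at 2 d against 7.16 to 8.27 in controls. Sult2a8, a bile acid sulphotransferase of mouse liver, fell 4.87-fold (-2.28 ± 0.35, and -1.40 without arrays 4 and 5). Car3, a carbonic anhydrase, had 13.88, 13.94, 13.54, 11.30 and 10.78 at 2 d, against 13.98 to 14.32 in controls (-1.47 ± 0.39, adjusted p = 0.00246, and 0.361 without arrays 4 and 5). Mme, the peptidase neprilysin, fell 4.17-fold (-2.06 ± 0.28).

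These comparisons share the arrays at 2 d with each other and with the comparison with controls, so each is given by its own values. Against 1 d 4283 genes were called (32.4%), 2301 higher (17.4%) and 1982 lower (15%) at 2 d, and 490 by at least 2-fold (3.7%), 341 higher (2.58%) and 149 lower (1.13%). With only the compared groups in the fit, 2387 were called against 1 d, 1338 higher and 1049 lower. Against 4 d 4139 were called (31.3%), 2367 higher (17.9%) and 1772 lower (13.4%) at 2 d, and 335 of them by 2-fold or more (2.53%), of which 223 were higher (1.68%) and 112 lower (0.846%). The cell cycle lists were above both times: 26 of 32 mitosis genes were higher at 2 d than at 1 d and 26 higher than at 4 d, and 24 of 31 replication genes were higher than at 1 d and 26 higher than at 4 d. Mki67 averaged 4.88 in controls, 4.51 at 1 d, 9.08 at 2 d and 7.07 at 4 d (SD 0.26, 0.24, 0.64 and 0.51, n = 5 each). It differed between 2 d and 1 d by 4.57 and between 2 d and 4 d by 2.01 (adjusted p = 1.08e-21 and 9.72e-11).

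Stress gene lists differed in how they stood against 1 d. Of 14 heat shock genes 12 were lower than at 1 d, as were 14 of 22 unfolded protein response genes, 17 of 22 ribosome biogenesis genes and 16 of 31 proteasome genes, with none higher in any of these lists. Nrf2 targets were called in both directions, 5 of 20 higher and 6 lower than at 1 d (median 0.05), as were p53 targets, 3 of 14 higher and 2 lower (median 0.18). Among all genes 17.4% were higher and 15% lower at 2 d than at 1 d. Nupr1, a stress-induced regulator, averaged 6.36 in controls, 11.20 at 1 d, 7.34 at 2 d and 6.44 at 4 d, a difference of -3.85 between 2 d and 1 d (adjusted p = 1.33e-11). Srxn1 differed by -2.21, Ddit3 by -2.58 and Trib3 by -3.04 between 2 d and 1 d (adjusted p of 2.08e-06 or below). Cholesterol synthesis genes were higher at 2 d than at 1 d in 16 of 19 and fatty acid synthesis genes in 13 of 19. Car3 averaged 14.16 in controls, 9.58 at 1 d, 12.69 at 2 d and 14.10 at 4 d, with arrays 4 and 5 at 2 d inside the range of the arrays at 1 d. Of 24 P450 and drug metabolism genes 12 were higher and 2 lower at 2 d than at 1 d, while 13 were lower and none higher than at 4 d. Cyp2e1 was not called between 2 d and 1 d (-0.61, adjusted p = 0.0775), and it was lower at 2 d than at 4 d (-1.88, adjusted p = 5.46e-07).

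Matrix genes were higher at 2 d than at 1 d in 21 of 37 and lower in 2. Col3a1 averaged 7.45 in controls, 7.26 at 1 d, 9.69 at 2 d and 10.25 at 4 d, called between 2 d and 1 d (2.43, adjusted p = 2.39e-08) and not between 2 d and 4 d (-0.56, adjusted p = 0.155). Acta2 was higher at 2 d than at both times (by 1.52 and 1.95). Kupffer cell markers were higher than at 1 d in 8 of 15 and lower in none, and against 4 d 2 were higher and 5 lower, with Clec4f at 0.48 against 1 d and -0.80 against 4 d (adjusted p = 0.00809 and 3.68e-05). Gpnmb averaged 5.27 in controls, 6.12 at 1 d, 6.89 at 2 d and 7.97 at 4 d, and was lower at 2 d than at 4 d (-1.08, adjusted p = 0.0218).

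**Figure D5:**
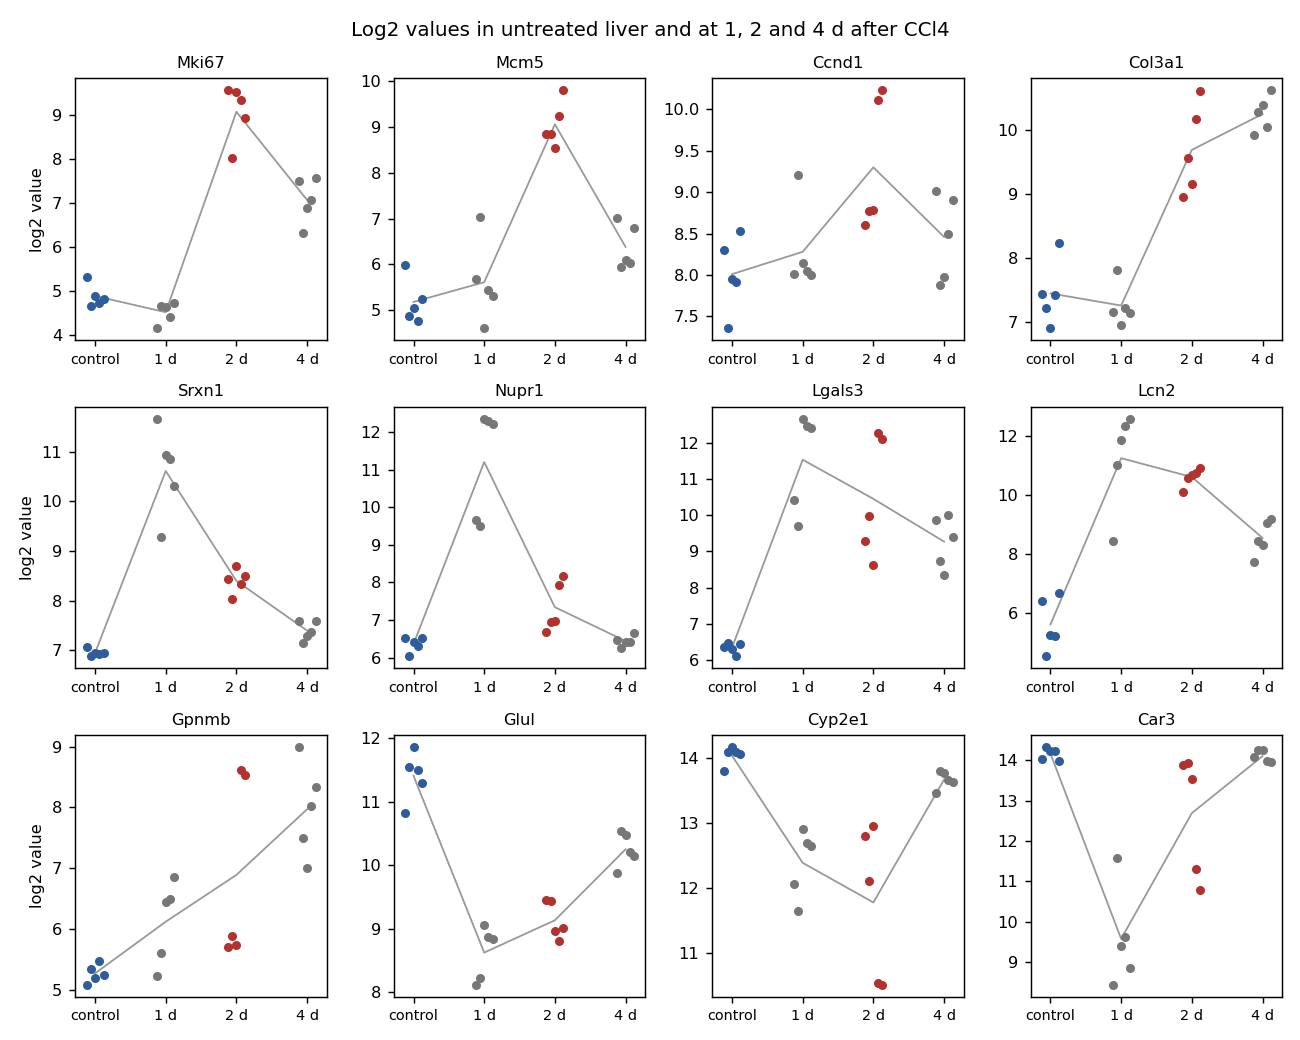
Log2 values of 12 genes on each array in controls (blue) and at 1 d, 2 d (red) and 4 d after CCl4, with lines through the group means. By group mean Mki67 and Mcm5 are highest at 2 d, Nupr1 and Srxn1 at 1 d and Gpnmb and Col3a1 at 4 d, while Glul and Cyp2e1 are below controls at all 3 times.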

How the data were processed

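Values are log2 expression values as deposited by the authors, made per the submitters' processing notes with oligo 1.52.0 and RMA. Affymetrix control probe sets (64) were left out, and 34945 probe sets naming 1 gene were kept, 932 naming several and 9160 naming none were not. Symbols were updated through Entrez for 34741. Genes exceeding 5.55823 (the overall median value) on 5 or more arrays were tested with limma 3.58.1 in R 4.3.3, 1 mean per group over all 46 arrays, eBayes and Benjamini-Hochberg adjustment; the procedure was tested on simulated data. Array measures were compared by exact permutation tests. Named genes are the 12 largest non-overlapping rises and falls, up to 5 called members per list in the main direction and 3 in the other, a fixed panel, the 12 most variable called genes, the 6 largest changes each way against 1 d and 4 d, and defining members not called; others were named after their values were seen. Listed names were matched by current symbol, or by a unique synonym where the name is no gene's current symbol. Members and lists were chosen with earlier results of these data known. Alternatives changed scaling, filter, probe set rule, samples, variance model, array weights, replicate block and single arrays. Those without arrays 4 and 5 and with the Gapdh covariate were added after seeing the data. The control arrays carry CCL4 in their treatment label, while title and design call them untreated.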

Additional observations from a re-analysis of the deposited data

Results flagged for a closer look

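In some groups of 5 arrays 1 array lay far from the others relative to the group's range. This held for 23 of 448 groups of named genes and array measures (5.13%), and chance alone marks about 1 in 20 groups. At 2 d array 2 stood apart in Smc2 (8.32), Tubb6 (8.62), Txnrd1 (8.96), Tnfrsf12a (7.88), Osmr (5.33), Hnf4a (11.27) and Upk1b (7.48). Other arrays at 2 d that stood apart were array 5 in Clec4f (9.16) and Prim1 (8.96), array 1 in Cenpf (5.80), array 3 in Pgd (9.21) and array 4 in Rspo3 (4.99). Among controls array 1 stood apart in Ccnb2 (5.80), Ube2c (5.08) and Mmp14 (7.89), array 2 in Igf2bp3 (7.56), array 3 in Lyz1 (9.33), Rplp0 (11.83) and Scd1 (13.37), and array 5 in Ctsc (9.71), Gsta2 (10.77), Gucy1a1 (6.22) and Trib3 (7.59).

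The levels at 2 d differed by direct test in the limma fit from those at 1 d in 4283 genes and from those at 4 d in 4139 genes. The annotation used lists no gene for 3144 tested probe sets, and no comparison above uses them. Against controls, 888 of these probe sets were called lower at 2 d and 260 higher. Only 19 of the lower ones and 33 of the higher ones reached a 2-fold change. Among the 13239 genes tested more were higher (2799, 21.1%) than lower (2508, 18.9%), so these probe sets leaned the other way. The cause was not tested.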

How the results depend on the processing

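Of 211 named genes called at 2 d against controls, 137 kept their call and direction under every alternative run and 172 under every single array left out. Leaving out 1 array at a time gave 4522 to 5341 calls against controls (2467 to 2794 higher, 2055 to 2547 lower), 489 to 621 of at least 2-fold (369 to 448 higher, 120 to 173 lower), 3770 to 4704 against 1 d (1995 to 2537 higher, 1747 to 2167 lower) and 3391 to 4251 against 4 d (2013 to 2379 higher, 1378 to 1872 lower). Without arrays 4 and 5 at 2 d 1515 genes were lower than in controls. With only the compared groups in the fit 2387 genes were called against 1 d, 1338 higher and 1049 lower, a fit with fewer arrays. Against controls this fit lost the calls of Acot1, Bhmt, Car3, Cyp51, Etfdh, Gucy1a1, Hadha, Igf1, Igfbp1, Igfbp3, Il6ra, Rsad2, Srebf2, Tnfrsf10b and Vsig4. Tests against a minimum change of 1.5-fold and 2-fold, stricter by construction, left 439 and 142 calls. Values changed sign for Alb under cyclic loess (-0.06), Bhmt without arrays 4 and 5 (0.10), Cenpf (1.94), Srebf2 (0.40) and Syngr1 (0.03) with the probe set of largest interquartile range, and Orc1 (0.02) and Srebf2 (0.10) with the mean of all probe sets, and the cause was not tested. With the Gapdh covariate the calls of Acadl, Bhmt, Bmp5, Bst2, Cdh1, Cebpd, Cenpf, Clps, Cyp3a44, Cyp7a1, Egfr, Etfdh, Foxa2, Hadha, Herpud1, Hmox1, Ighm, Mpo, Mt1, Ndufa8, Nupr1, Rsad2, S100a9, Socs3, Srebf2, Stard4, Tnfrsf10b, Vipr1 and Vsig4 were lost. Under at least 1 of the other scalings those of Acot1, Blk, Bmp5, Cdh1, Cenpf, Clock, Clps, Cyp3a44, Cyp51, Egfr, Etfdh, Foxa2, Gucy1a1, Hadha, Hmox1, Hpx, Igf1, Itih3, Mpo, Mvd, Srebf2, Tnfrsf10b, Vipr1 and Vsig4 were lost. With the replicate number as a replicate block the calls 2 d against control numbered 5276. Deviations from the group mean correlated at -0.107 to 0.336 over same-numbered arrays at 2 d and in the controls, 1 d or 4 d. Arrays of different numbers were not compared in this way, so whether the numbers pair the arrays cannot be told. Signals near background limit what low genes can show.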

Other observations

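The genes named here belong to no list and were picked from the largest changes after their values were seen, so they stand for no group. Hmgb2, a chromatin protein of dividing cells, had 8.90, 8.03, 9.09, 8.83 and 8.67 at 2 d, against 5.88, 5.42, 4.79, 5.00 and 5.24 in controls, a 10.9-fold rise (3.44 ± 0.17). Smc4, a condensin subunit, rose 6.17-fold, Hat1, a histone acetyltransferase, 4.08-fold and Dck, a kinase of the nucleoside salvage pathway, 5.34-fold. In Smc4 array 2 was the lowest at 2 d, at 8.34 against 9.52 to 9.87 on the other arrays, while in Hat1 arrays 4 and 5 were the highest, at 8.76 and 9.24.

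Among genes picked in the same way, Aldh18a1, which makes the precursor of proline, had 6.72, 6.85, 6.90, 6.88 and 6.78 at 2 d, against 4.53, 4.51, 4.64, 4.30 and 4.41 in controls, a 5.1-fold rise (2.35 ± 0.25). It was read from a single probe set of a type that can match near-identical transcripts, so its identity is uncertain. Prodh, which degrades proline, fell 2.8-fold (-1.49 ± 0.18). Tat, which degrades tyrosine, fell 3.27-fold (-1.71 ± 0.26), Hpd, of the same route, 2.71-fold (-1.44 ± 0.20) and Gnmt, the glycine methyltransferase, 2.82-fold (-1.50 ± 0.12). Got1, an aspartate aminotransferase, fell 2.35-fold (-1.23 ± 0.21) and Cth, which makes cysteine, 2.27-fold (-1.18 ± 0.26).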
